A study of Mus musculus with 96 samples.

Results

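C2C12 cells were treated with piericidin at day 1 of differentiation, and their mRNA was compared with that of cells given the solvent DMSO alone. C2C12 is a clonal mouse muscle line that divides as myoblasts in high serum and, once confluent, leaves the cell cycle and fuses into myotubes in low serum. The members were all samples labelled as piericidin or DMSO at 24 hours in differentiation medium with no added protein, which gave 3 samples of each and 6 of the 96 samples of the series. The series as a whole tested inhibitors of mitochondrial respiration in dividing myoblasts, day 1 cells and day 4 myotubes. All 6 cultures were grown without viral transduction or doxycycline in 20% dialyzed fetal bovine serum, were switched at confluence to 2% dialyzed horse serum for 1 day, and then received 0.5 µM piericidin or DMSO for 10 hours. The medium held 10 mM glucose and 4 mM glutamine and no pyruvate. For comparison, 3 day 1 samples had received 1 µM oligomycin for the same time, 6 samples were day 4 myotubes of the same untransduced cells with DMSO or piericidin, and 6 were dividing myoblasts with DMSO or piericidin. The myoblasts carried a luciferase transgene induced with 300 ng/ml doxycycline and grew in 10% fetal bovine serum.

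Piericidin blocks complex I, the first enzyme of the respiratory chain, which takes electrons from NADH and pumps protons out of the mitochondrial matrix. Blocking it slows the oxidation of NADH to NAD+ and the making of ATP by respiration, and cells can respond with the integrated stress response, in which phosphorylation of eIF2 alpha lowers general translation while the transcription factor ATF4 turns on genes of amino acid synthesis and stress. Oligomycin instead blocks ATP synthase, the enzyme that lets protons back in. Day 1 cells have started to make muscle proteins but have had little time to fuse.

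The 6 libraries held 9199944 to 12067492 estimated counts each. A single ribosomal RNA-like gene, CT010467.1, took 24.6% to 26.9% of the counts in DMSO and 25.2% to 27.9% with piericidin. The labelled cell type was checked against its markers. The 7 muscle lineage markers, which include Myod1, Des and Myog, summed to 6480 to 6750 CPM (counts scaled to a library total of 1000000; elsewhere the library sizes were adjusted by TMM) in DMSO and to 5900 to 6030 with piericidin, and those of dividing cells to 187 to 218 and 171 to 175. Markers of other cell types were low. The sums for adipocyte, endothelial, leukocyte, neural, epithelial and osteoblast lists each lay between 0.0874 and 8.94 CPM in the 6 samples, and Adipoq, Adgre1, Sox10, Epcam and Krt5 were at 0. The leukocyte list was higher with piericidin, at 1.34 to 2.36 against 0.414 to 1.11. In a principal component analysis of the 9 day 1 samples, the first component held 35.08% of the variance and set DMSO (-18.9 to -17.4) apart from piericidin (-11.81 to -6.15) and further from oligomycin (24.5 to 31.55). The second held 17.92%, and on it the groups overlapped. DMSO ran there from -10.89 to 0.95, piericidin from -9.05 to 24.3 and oligomycin from -21.04 to 19.41. The sources used here do not say whether replicates were separate cultures, so the p-values measure the spread between these samples, which may be technical.

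Piericidin changed few genes, and most changes were small. Of 11827 genes tested, 325 (2.75%) differed from DMSO at an adjusted p under 0.05 in edgeR's quasi-likelihood test with Benjamini-Hochberg adjustment, 164 higher (1.39%) and 161 lower (1.36%), while 1862 (15.7%) had an unadjusted p under 0.05. The median absolute log2 fold change of these 325 was 0.35, or 1.28-fold. The 1862 were 955 higher and 907 lower, and 6011 of the 11827 genes had a log2 fold change below 0. Counts in the gene lists below are to be read against these shares. Single calls in the longer lists lie near the 2.75% of all genes. All 325 had 3 piericidin samples on the same side of the 3 DMSO samples, as had 2637 (22.3%) of all genes tested. Only 22 genes (0.186%) were called and changed at least 2-fold, of which 4 rose and 18 fell. With no further scaling of library totals, a setting chosen after seeing the data, 104 genes rose and 238 fell, and the median over all genes moved from -0.0035 to -0.0429. Leaving out any 1 of the 6 samples lowered the count of 325 to between 122 and 176, and 90 genes (41 higher, 49 lower) were called in all 6 of those fits and in the full one. In bulk RNA, fewer cells of a kind and less RNA per cell cannot be told apart.

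**Figure D1:**
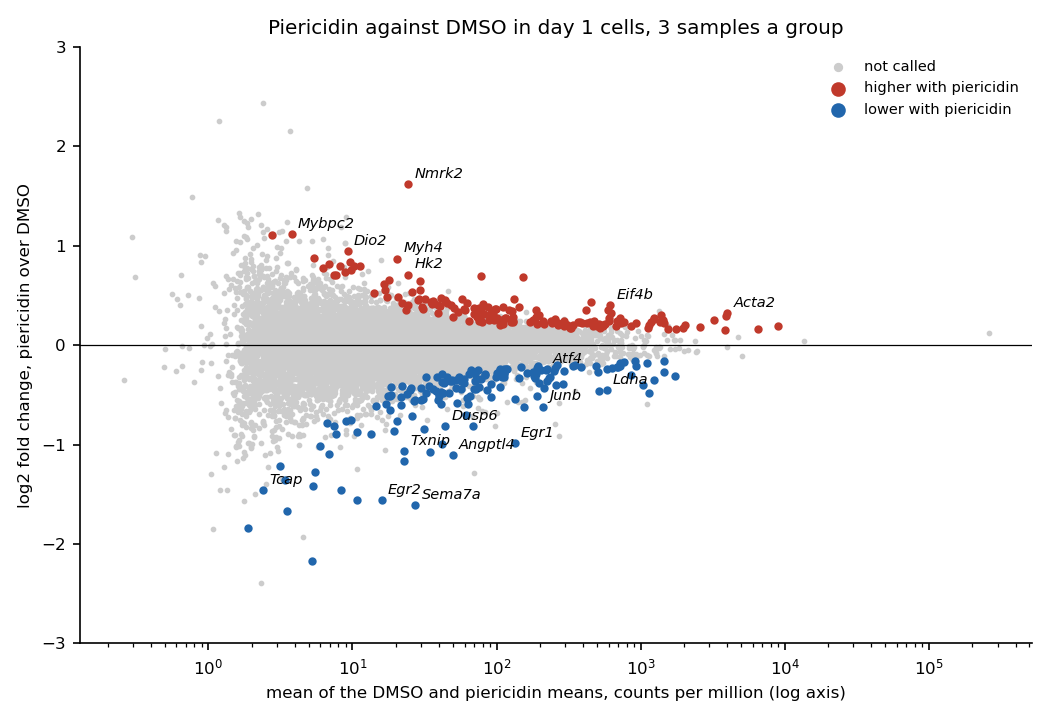
Log2 fold change of piericidin over DMSO in day 1 cells against the mean level in CPM (log axis), 1 point per gene, with 3 samples a group. Genes called at an adjusted p under 0.05 are red where higher (164) and blue where lower (161), most lie within 1 log2 unit of 0, and 2 genes lie outside the axis range.

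Nmrk2 rose most among the called genes with a mean of at least 50 counts. It encodes a muscle kinase that phosphorylates nicotinamide riboside, a precursor of NAD+. Its level was 11.85, 11.99 and 11.95 CPM in DMSO and 34.68, 39.86 and 35.40 with piericidin, so the groups were far apart and the DMSO samples nearly equal. That is a log2 fold change of 1.62 ± 0.10 (SE, n = 3 per group; edgeR adjusted p = 3.89e-05), or 3.07-fold. Nmrk2 (chromosome 10, 81198170 to 81202051 on the minus strand, GRCm38) lies inside the span of the antisense gene Atcayos on the plus strand, and the library method did not keep strand. Atcayos itself was at 2.95 to 4.04 CPM in DMSO and 2.92 to 4.38 with piericidin, a log2 fold change of 0.07 ± 0.26. Of the 12 genes of NAD synthesis and use tested, a list added after the values were seen, Nmrk2 alone was called. Nampt, the rate-limiting enzyme of NAD+ salvage from nicotinamide, had a log2 fold change of 0.33 ± 0.10 (edgeR adjusted p = 0.109).

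Glucose-handling genes split. Hk2, the inducible hexokinase of muscle that traps glucose in the cell, rose from 16.8, 20.6 and 18.0 CPM to 31.9, 26.7 and 32.2, a log2 fold change of 0.71 ± 0.10 (edgeR adjusted p = 0.00456). It was the only 1 of 23 genes of glycolysis and lactate tested that rose. Ldha, the lactate dehydrogenase subunit that regenerates NAD+ from NADH, stood at 658, 673 and 689 CPM in DMSO and fell to 494, 474 and 509, a log2 fold change of -0.45 ± 0.04 (edgeR adjusted p = 0.000154). Pfkl, the liver-type phosphofructokinase (-0.44), Pgam1, a phosphoglycerate mutase (-0.33), and Eno1, an enolase (-0.23), fell as well. Pfkl lost its call in 5 of 12 other settings and Pgam1 in 6, and the number of the 23 called lower ran from 2 to 7. The median over the 23 genes was -0.08 on the log2 scale, against -0.0035 over all genes.

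Txnip, which restrains glucose uptake and whose transcription follows glycolytic metabolites through MondoA, fell. Its levels were 32.4, 27.6 and 32.1 CPM in DMSO and 15.7, 12.2 and 16.1 with piericidin, with no overlap. The log2 fold change was -1.06 ± 0.19 (edgeR adjusted p = 0.0119), and in 2 of 12 other settings it missed the threshold.

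Several targets of the hypoxia-inducible factors (HIF), transcription factors that are broken down when oxygen is at hand, were lower. Set against 1.36% of all genes lower, 3 of the 19 tested fell and none rose. They were Ankrd37 (log2 fold change -1.66 ± 0.28), Ldha and P4ha1, a prolyl hydroxylase subunit of collagen synthesis (-0.32 ± 0.05). Angptl4, a secreted inhibitor of lipoprotein lipase listed with the genes of fatty acid use, fell from 63.7, 71.1 and 69.6 CPM to 31.7, 32.0 and 31.2. Its 3 piericidin samples were nearly equal, and the log2 fold change was -1.11 ± 0.08 (edgeR adjusted p = 3.89e-05). No other of 20 genes of fatty acid oxidation was called.

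Immediate early genes are transcribed within minutes of a mitogen signal, and were listed with the feedback inhibitors of the MAP kinase pathway. Of 25 tested, 7 fell and none rose in edgeR's test (11 and 1 at an unadjusted p under 0.05, and 6 and 0 in DESeq2), the median log2 fold change was -0.33, and 20 of the 25 were below 0. Over all 11827 genes, 1.36% were called lower, 907 were lower and 955 higher at an unadjusted p under 0.05, and 6011 were below 0. Egr2, a zinc finger transcription factor, was at 25.95, 23.50 and 22.04 CPM in DMSO and at 7.42, 8.15 and 8.68 with piericidin. This was 0.339 of the DMSO level, a log2 fold change of -1.56 ± 0.13 (edgeR adjusted p = 8.94e-05). Egr1, of the same family and more abundant, fell from 180, 178 and 174 to 76.2, 93.8 and 99.8 CPM, a log2 fold change of -0.98 ± 0.15 (edgeR adjusted p = 0.00579). Junb, an AP-1 subunit, was at 259, 253 and 250 against 161, 170 and 166 CPM, a log2 fold change of -0.62 ± 0.04 (edgeR adjusted p = 3.89e-05).

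Egr3 (-0.89), Dusp6, a phosphatase that inactivates ERK (-0.82), Klf10, which TGF-beta induces (-0.53), and Myc, a driver of cell growth (-0.45), completed the 7, of which Egr3 lost its call in 8 of the 11 other settings it was tested in. The AP-1 subunits Fosl1 (-1.02 ± 0.25, edgeR adjusted p = 0.0543) and Fos (-0.71 ± 0.24, edgeR adjusted p = 0.168) did not pass. Across the other settings between 5 and 9 of the 25 were called lower. The map of single samples shows Spry2, Jun, Klf2 and Klf4 at its upper end, with no call.

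**Figure D2:**
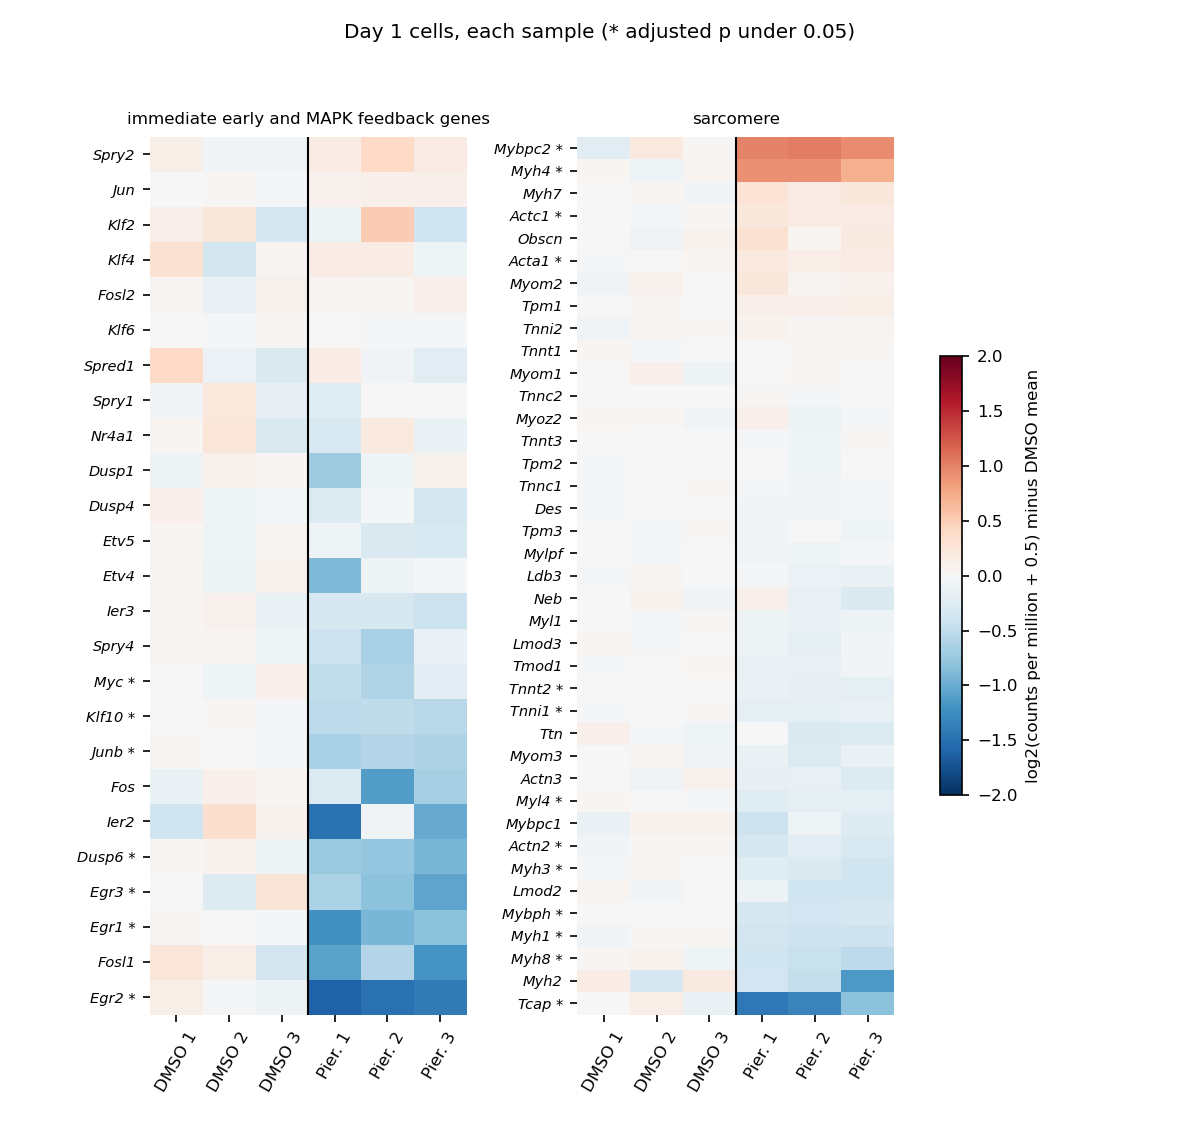
Level of each immediate early or MAPK feedback gene (left) and each sarcomere gene (right) in each of the 3 DMSO and 3 piericidin samples, as log2(CPM + 0.5) minus the mean of the DMSO samples, with an asterisk at genes called at an adjusted p under 0.05. All 3 piericidin samples are blue for the 7 called genes on the left, while the sarcomere genes hold 4 called higher and 9 called lower.

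Of the secreted and surface proteins among the genes that fell most, Sema7a, a membrane-anchored semaphorin that signals through integrins, went from 37.7, 45.4 and 40.5 CPM to 13.68, 12.78 and 14.03, a log2 fold change of -1.61 ± 0.11 (edgeR adjusted p = 3.89e-05). Fst encodes follistatin, which binds and blocks myostatin and activins. Its levels of 59.4, 50.5 and 58.6 fell to 26.5, 32.4 and 25.5 CPM, 0.501 of the DMSO level (SE of the log2 fold change 0.11, edgeR adjusted p = 0.00106). Fst and Cyr61, a matrix protein that YAP induces (-0.62 ± 0.06), were called of the 17 genes of the YAP and TGF-beta response tested. The other genes with large decreases were Tas1r1, a subunit of the amino acid taste receptor (-1.56), Adamtsl2 (-1.46), Mss51 (-1.42), the gap junction protein Gja5 (-1.27), R3hdml (-1.17), the small nuclear RNA Rn7sk (-1.10), Fam167a (-1.08), the coagulation factor F2 (-1.01) and Prag1 (-0.90). Of these, Gja5, Rn7sk and F2 lost the call in 3 to 6 of 11 other settings.

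Muscle genes moved in both directions. Of 39 sarcomere genes tested, 4 rose and 9 fell, against 1.39% and 1.36% of all genes, and the median log2 fold change was -0.09. Across the other settings 2 to 4 were called higher and 3 to 11 lower. Myh4, the fast IIb myosin heavy chain of adult muscle, rose from 14.79, 13.51 and 15.01 CPM to 27.7, 27.5 and 24.05, a log2 fold change of 0.87 ± 0.11 (edgeR adjusted p = 0.00159). Mybpc2, the fast myosin-binding protein C, rose from 1.96, 2.76 and 2.42 to 5.18, 5.33 and 5.01, a log2 fold change of 1.12 ± 0.21 at low counts, and lost the call in 5 of the 11 other settings it was tested in. The sarcomeric actins Actc1 (0.18 ± 0.03) and Acta1 (0.16 ± 0.03) rose slightly.

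The sarcomere genes that fell included other myosin heavy chains. Myh8, the perinatal form, changed by -0.46, Myh1, the IIx form, by -0.40 and Myh3, the embryonic form, by -0.31 on the log2 scale. Myh1 stood at 283, 297 and 299 CPM in DMSO and 228, 219 and 220 with piericidin. Tcap, the titin cap protein of the Z disc, fell from 3.53, 3.90 and 3.15 to 0.983, 1.11 and 1.78, a log2 fold change of -1.46 ± 0.29 (edgeR adjusted p = 0.0244) that was not called in 5 of 11 other settings. Mybph (-0.35), Actn2 (-0.29), Myl4, Tnni1 and Tnnt2 made up the 9.

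Of 16 genes of myogenic regulation and cell fusion, 5 fell and none rose (6 and 3 at an unadjusted p under 0.05, and 5 and 0 in DESeq2). Across the other settings 2 to 5 were called lower and 0 to 1 higher. Of 24 genes of the muscle membrane, calcium and creatine, Ckb, Casq2 and Gatm fell, and lost the call in 2, 5 and 6 of 12 other settings. Mef2c, a transcription factor of muscle structural genes, had a log2 fold change of -0.56 ± 0.10, a call lost in 4 of 12 other settings. Mymx and Mymk, the micropeptide and the membrane protein that drive myoblast fusion, had changes of -0.45 ± 0.06 and -0.22 ± 0.04. The adhesion protein Cdh15 (-0.27 ± 0.04) and Myog, the transcription factor that marks entry into differentiation (-0.16 ± 0.04), were lower too. Des, in contrast, was at 2134 to 2188 CPM in DMSO and 2087 to 2109 with piericidin, a log2 fold change of -0.05 ± 0.03 (edgeR adjusted p = 0.438). Myod1 (0.14, edgeR adjusted p = 0.155) and Myf5 (0.43, edgeR adjusted p = 0.0966), the factors that set the muscle lineage, lay above 0 and did not pass.

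Among the other genes that rose most were Dio2, the deiodinase that makes active thyroid hormone (0.95 ± 0.18), Lims2, an integrin adaptor (0.87), the peptidase Anpep (0.84), Clic3 (0.82), Ugt1a6a (0.80), Padi2 (0.79), Mipol1 (0.77), Phyhd1 (0.76), Vldlr, a lipoprotein receptor (0.74), Rdm1 (0.71) and Hscb, a co-chaperone of iron-sulfur cluster assembly (0.71). Several of these calls depended on the setting. Hscb lost its call in all 11 other settings it was tested in, Rdm1 in 10, Lims2 and Mipol1 in 9, Phyhd1 in 8, Anpep in 7, Ugt1a6a in 6, Dio2 and Vldlr in 5, and Clic3 and Padi2 in 4. By contrast, Nmrk2, Myh4 and Hk2 were called in all 12. Dio2 went from 6.56, 6.19 and 6.30 CPM to 14.3, 12.1 and 10.2. Cdsn (1.11 ± 0.22) and the predicted gene Gm14440, named here after their values were seen, were the remaining genes that rose at least 2-fold. Cdsn lost its call in 5 of 12 other settings. Gm14440 had 0 counts in all 3 DMSO samples and 54, 48 and 29 with piericidin, at least 14.6-fold higher against a floor of 3 counts per library. Whether reads of similar genes were assigned to Gm14440 was not tested.

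Part of the cytosolic ribosomal protein genes rose, each by a small amount. Of 76 cytosolic ribosomal protein genes, 20 rose and none fell, 72 had a log2 fold change above 0 in a range from -0.26 to 0.26, and the median was 0.17, or 0.1294 with library totals only, where 9 rose. Over all genes, 1.39% were called higher and 5816 of 11827 had a log2 fold change above 0. In the fit of the 9 day 1 samples none of 78 mitochondrial ribosomal protein genes was called by edgeR or DESeq2, 3 had an unadjusted p under 0.05, and their median was 0.00. Rpl4 was at 1303, 1304 and 1321 CPM in DMSO and 1588, 1567 and 1525 with piericidin, a log2 fold change of 0.25 ± 0.03 (edgeR adjusted p = 0.00106). Across the other settings 5 to 32 of the 76 were called higher. Many ribosomal protein genes have processed pseudogenes with near-identical sequence, so their share of reads is uncertain.

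Ribosomal protein mRNAs belong to the TOP class, which begin with a C followed by a run of pyrimidines that ties their translation and stability to mTORC1 and LARP1. Of 16 other mRNAs of that class, a list also added after the values were seen, 10 rose and none fell, with a median of 0.20, and across the other settings 5 to 10 rose. Over all genes, 1.39% were called higher. Eif4b, a helper of the eIF4A helicase, rose from 534, 530 and 535 to 724, 679 and 706 CPM, a log2 fold change of 0.40 ± 0.03 (edgeR adjusted p = 0.000101). Pabpc1, the cytoplasmic poly(A)-binding protein, rose by 0.33 ± 0.05 and Eef2, the elongation factor that moves the ribosome along, by 0.29 ± 0.03. The start windows of 4 of the genes that rose are shown from 10 bases before to 20 bases from the annotated start (RefSeq, GRCm38.p6), with the pyrimidine run from its C in capitals where there is one. Rpl15 (chr14:18270967-18270996, minus strand), Rpl28 (chr7:4792955-4792984, plus strand) and Rack1 (chr11:48800350-48800379, plus strand) have it, while Eef2 (chr10:81176621-81176650, plus strand) does not at the start annotated there.
Rpl15: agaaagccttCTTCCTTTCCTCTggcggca
Rpl28: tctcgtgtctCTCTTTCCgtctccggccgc
Rack1: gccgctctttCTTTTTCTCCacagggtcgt
Eef2: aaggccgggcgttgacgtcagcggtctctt
A C with at least 4 pyrimidines after it on the gene's own strand stood at the annotated start of 13 of 56 ribosomal protein genes with a sequence (23.2%), 3 of 10 of the other TOP genes (30%) and 813 of all 27025 genes (3.01%).

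Of 17 genes of the actin cytoskeleton tested, a list added after the values were seen, 3 rose and none fell, against 1.39% higher of all genes. Acta2, the smooth muscle actin that young muscle cells also make, rose from 3485, 3542 and 3620 to 4510, 4391 and 4427 CPM, a log2 fold change of 0.32 ± 0.03 (edgeR adjusted p = 0.000101). Myl9, a regulatory myosin light chain of non-muscle and smooth muscle myosin, rose from 112, 112 and 107 to 152, 149 and 157, a log2 fold change of 0.47 ± 0.05 (edgeR adjusted p = 0.000804). Actg1, a cytoplasmic actin, rose by 0.25 ± 0.04.

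The CArG box is a promoter element where serum response factor (SRF) binds, and SRF serves both immediate early genes and actins, through different partners. It was found, in the 250 bases before the annotated start, for Egr2 alone of 16 immediate early and MAPK feedback genes with a promoter sequence (6.25%) and for 6 of 14 genes of the actin cytoskeleton (42.9%). Egr2 fell, and of the actin cytoskeleton genes Actg1 and Myl9 rose, while Cnn2 (0.16), Myl6 (0.02), Srf (0.29) and Vcl (0.05) have the box and were not called. Of the sarcomere genes with it, Actc1, Acta1 and Myh4 rose, and Ldb3 (-0.09) and Myom1 (0.01) were not called. The windows below put the box, in capitals, between 20 bases on each side, and were taken from Egr2 (chr10:67537474-67537523, plus strand), Actg1 (chr11:120348556-120348605, minus strand), Myl9 (chr2:156775283-156775332, plus strand), Actc1 (chr2:114052893-114052942, minus strand) and Acta1 (chr8:123894819-123894868, minus strand), from RefSeq on GRCm38.p6.
Egr2: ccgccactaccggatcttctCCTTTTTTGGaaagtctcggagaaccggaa
Actg1: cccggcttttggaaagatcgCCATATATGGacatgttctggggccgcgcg
Myl9: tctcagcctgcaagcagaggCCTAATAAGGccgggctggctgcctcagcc
Actc1: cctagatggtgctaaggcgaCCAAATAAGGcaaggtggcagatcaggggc
Acta1: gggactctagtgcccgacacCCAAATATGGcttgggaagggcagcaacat
The box begins 72 bases before the start of Egr2, 90 before Actg1, 161 before Myl9, 47 before Actc1 and 73 before Acta1. It was present for 6 of 117 genes that rose and had a promoter sequence (5.13%), 1 of 122 that fell (0.82%) and 130 of 8838 tested (1.47%), and for 439 of all 27025 promoters (1.62%). The box reads the same in either strand's pattern, so a match counts on both. Such a match is a match of letters and not a measured binding site, and promoters of Egr1, Egr3, Klf10 and Myc were not analysed here.

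**Figure D3:**
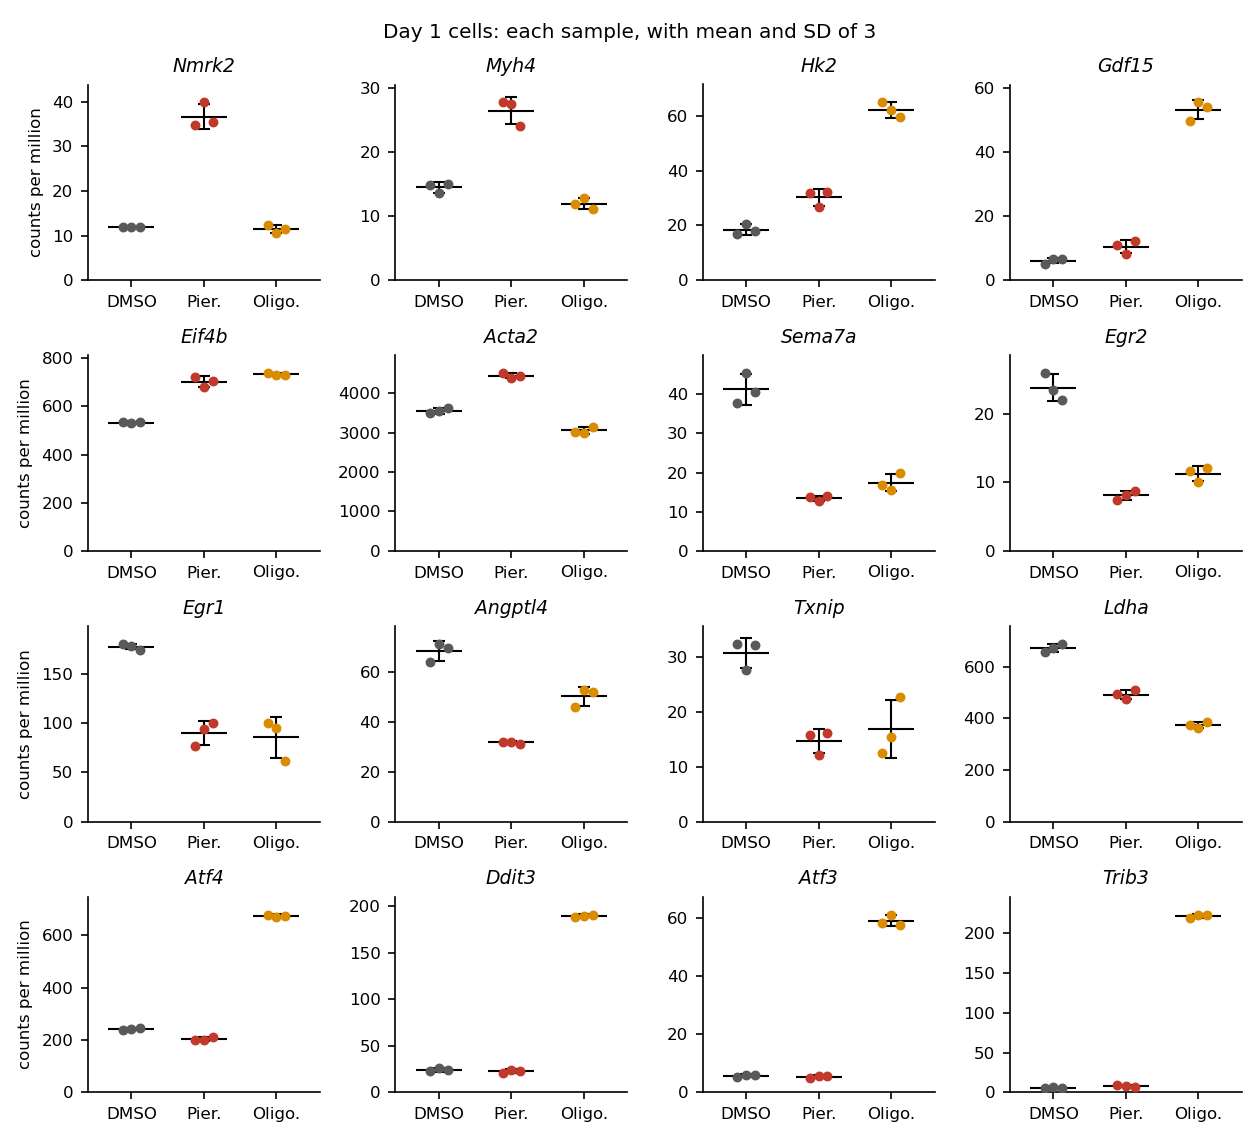
CPM of 16 genes in each of the 3 DMSO, 3 piericidin and 3 oligomycin samples of day 1 cells, with a line at the mean and bars for the SD, and each axis starting at 0. Nmrk2 and Myh4 are high with piericidin only, Sema7a, Egr2, Egr1 and Ldha are low with both inhibitors, and Atf4, Ddit3, Atf3 and Trib3 are far higher with oligomycin than in the other samples.

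The integrated stress response was the question the study put to these cells. No member of its regulators and feedback genes rose with piericidin in day 1 cells. Of 12 tested, 3 fell and 9 were not called, with a median log2 fold change of -0.09. At an unadjusted p under 0.05, 1 was higher and 4 were lower, and DESeq2 called none higher and 3 lower. Atf4, the central transcription factor, stood at 240, 241 and 246 CPM in DMSO and 201, 201 and 213 with piericidin, a log2 fold change of -0.24 ± 0.04 (edgeR adjusted p = 0.00702). Its target Chac1, a glutathione-degrading enzyme, fell by 0.42 on the log2 scale and the stress-induced chromatin protein Nupr1 by 0.48. Chac1 lost its call in 2 of 12 other settings, and across these 2 to 3 of the regulators were called lower.

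Ddit3, which encodes CHOP, a pro-death factor of the same response, lay at 22.8, 26.2 and 23.6 CPM in DMSO and 20.4, 24.3 and 23.3 with piericidin, so the groups overlapped (log2 fold change -0.10 ± 0.08, edgeR adjusted p = 0.618). Atf3, a stress-induced repressor, was at 5.19 to 6.13 and 4.92 to 5.79 (-0.10 ± 0.12, edgeR adjusted p = 0.787). Ppp1r15a, which brings the phosphatase that reverses eIF2 alpha phosphorylation, had a log2 fold change of 0.02 ± 0.08. Trib3, a pseudokinase that ATF4 and CHOP induce, was at 5.68, 6.57 and 6.05 against 9.30, 8.05 and 6.90, with no overlap and a log2 fold change of 0.41 ± 0.11 (edgeR adjusted p = 0.0836).

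Of the secreted proteins linked to mitochondrial stress, Gdf15, a circulating hormone that lowers appetite, rose. Its levels were 5.09, 6.47 and 6.46 CPM in DMSO and 10.99, 8.25 and 12.25 with piericidin, a log2 fold change of 0.80 ± 0.16 (edgeR adjusted p = 0.0214), and 6 of 12 other settings lost the call. Fgf21, the other such hormone, had a log2 fold change of 0.06 (edgeR adjusted p = 0.796). Among 19 genes of serine, one-carbon, asparagine and proline synthesis, the mitochondrial folate enzymes Aldh1l2 (0.45 ± 0.07) and Shmt2 (0.29 ± 0.04) rose, and Bcat1, a branched-chain aminotransferase (-0.32 ± 0.07), and Aldh18a1, an enzyme of proline synthesis (-0.25 ± 0.06), fell. In edgeR's test none of 11 amino acid transporters was called (2 higher and 1 lower at an unadjusted p under 0.05, and 1 higher in DESeq2), and none of 7 eIF2 alpha kinases and their relay genes (0 by each of these counts). Of 20 cytosolic tRNA synthetases, Qars rose and Tars and Iars fell. Bcat1, Aldh18a1 and Iars each lost the call in 8 of 12 other settings, Qars in 6 and Tars in 4.

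The respiratory chain itself changed little at the mRNA level. Of 36 nuclear genes of complex I subunits, Ndufs7 rose (from 113, 109 and 116 to 145, 140 and 143 CPM, log2 fold change 0.34 ± 0.06), and none of 40 nuclear genes of complexes II to V was called by edgeR in the fit of the 9 day 1 samples (3 at an unadjusted p under 0.05 and 2 in DESeq2, all higher). Of 13 mitochondrially encoded mRNAs, mt-Nd1, a core subunit of complex I, fell by 0.27 ± 0.05 on the log2 scale. At an unadjusted p under 0.05, 5 of the 13 were lower and 2 higher, and across the other settings 0 to 5 were called lower and 0 to 2 higher. The share of counts from mitochondrial mRNA was 0.766% to 0.955% in DMSO and 0.829% to 0.859% with piericidin. Idh3b was the only 1 of 27 genes of pyruvate dehydrogenase and the TCA cycle that rose, and it lost the call in 8 of 12 other settings. Of the 13 mitochondrial chaperones and proteases, Hspa9 (0.19 ± 0.04) and Dnaja3 (0.23 ± 0.05), which work together in protein import and folding, rose, but Dnaja3 lost its call in 10 of 12 other settings and Hspa9 in 5. Ftl1 (0.31 ± 0.04) and Fth1 (0.17 ± 0.03), the chains of the iron store ferritin, were the called members of 19 NRF2 targets. Ftl1 kept its call in all 12 other settings and Fth1 lost it in 5.

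Genes of the cell cycle called in the fit of the 9 day 1 samples were few and lower. Of 41 genes of DNA replication, 35 had a log2 fold change below 0, the median was -0.24, and Fen1 (-0.49), Mcm7 (-0.36) and E2f2 (-0.32) fell. Of 38 genes of G2 and mitosis, 36 were below 0, the median was -0.26, and Kif23, a kinesin of cytokinesis, fell (-0.50). At an unadjusted p under 0.05, 17 of the 41 and 19 of the 38 were lower, against 907 of all 11827 genes. Across the other settings of that fit 0 to 5 of the replication genes and 0 to 6 of those of G2 and mitosis were called lower, whereas the 27-sample fit of all 3 cell states called 8 of 42 lower, and 10 lower and 1 higher of 39. In the other settings Fen1, E2f2 and Kif23 each lost the call in 7 of 12, and Mcm7 in 4. These medians stand against -0.0035 over all genes, of which 6011 of 11827 were below 0. Tk1, thymidine kinase, was at 28.3, 28.0 and 26.6 CPM in DMSO and 21.2, 21.3 and 21.7 with piericidin, a log2 fold change of -0.37 ± 0.09 (edgeR adjusted p = 0.0694). Ccne1, the G1 to S cyclin (-0.23, edgeR adjusted p = 0.504), and Cdkn1a, the p21 inhibitor (-0.10, edgeR adjusted p = 0.229), were not called. Beside these, the summed markers of dividing cells named above were lower with piericidin, but none of the 4 was called. Mki67 (-0.53, edgeR adjusted p = 0.0783), Top2a (-0.26, edgeR adjusted p = 0.128) and Ccnb1 (-0.15) lay below 0 and Cdk1 (0.04) above. The part of residual dividing cells in the result was not tested.

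Of 24 genes of sterol synthesis and uptake, Dhcr7, the last enzyme of cholesterol synthesis, rose (0.44 ± 0.08), and Idi1, an isomerase earlier in the pathway, did not pass (-0.05, edgeR adjusted p = 0.73). Trp53inp1, a p53 target, did not pass either (0.14, edgeR adjusted p = 0.635), and Tnfrsf10b, a death receptor, was the 1 of 23 p53 targets that rose, a call that 10 of 12 other settings lost. Ctsl, a protease of the lysosome, was among the genes of autophagy and lysosome that rose. Pdia4 rose and Calr fell of 20 ER chaperones, Hspb1 rose of 13 heat shock genes, Pik3ip1 rose of 14 FOXO and atrophy genes, and Npm1 rose and Nop56 fell of 30 genes of ribosome biogenesis. Irs1, the insulin receptor substrate (-0.51 ± 0.12), fell of 13 genes of the IGF axis and Csf1 of 9 chemokines and cytokines. Of these calls Pdia4, Nop56 and Irs1 were lost in 6 of 12 other settings, Pik3ip1 and Csf1 in 5, Calr in 4, Dhcr7 and Ctsl in 3, and Npm1 in 1. In the fit of the 9 day 1 samples no member was called by edgeR of 8 genes of NADH shuttles (2 higher at an unadjusted p under 0.05), 12 of fatty acid synthesis (3 higher), 13 regulators of mitochondrial biogenesis (1 lower), 18 of purine and pyrimidine synthesis (4 higher), 15 G1 cyclins and CDK inhibitors (1 higher and 2 lower) and 14 collagens (3 lower), and DESeq2 called 1 of them, in fatty acid synthesis.

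**Figure D4:**
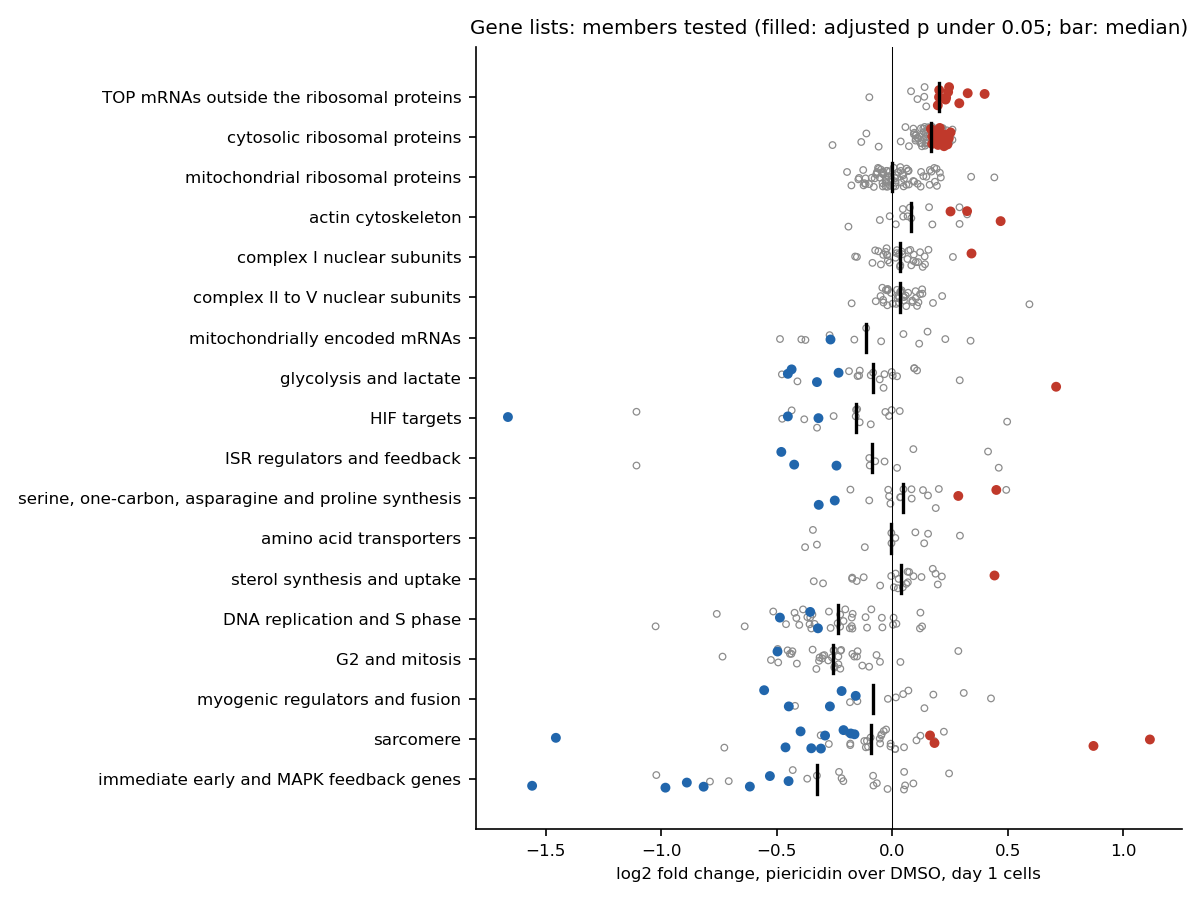
Log2 fold change of piericidin over DMSO for each tested member of 18 gene lists (points), filled red or blue where called higher or lower and open where not called, with a bar at the list's median. The medians run from -0.33 for the immediate early genes to 0.20 for the TOP mRNAs outside the ribosomal proteins.

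Day 1 cells treated with oligomycin allowed a direct comparison of the inhibitors in the same cells, at 0.5 µM piericidin and 1 µM oligomycin. Of 11827 genes, 1737 (14.7%) differed between them, 831 higher (7.03%) and 906 lower (7.66%) with piericidin. All 12 tested regulators of the integrated stress response were lower with piericidin than with oligomycin, and the median difference was -2.15 on the log2 scale. Trib3 stood at 9.30, 8.05 and 6.90 CPM with piericidin and 219, 223 and 223 with oligomycin, a log2 difference of -4.77 ± 0.09 (edgeR adjusted p = 6.89e-11). Atf3 (-3.44 ± 0.11), Chac1 (-3.22 ± 0.07), Ddit3 (-3.07 ± 0.08), Gdf15 (-2.34 ± 0.14) and Atf4 (-1.72 ± 0.04) differed the same way. Car6, a secreted carbonic anhydrase (-5.02 ± 0.36), and Cdsn (-3.36 ± 0.17) were the others with the largest differences.

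Against DMSO, with which both inhibitors were compared using the same 3 samples, oligomycin changed 2445 genes (20.7%), 1255 of them higher (10.6%), and 11 of the 12 stress response regulators were among the latter. Nmrk2 was higher with piericidin than with oligomycin by 1.68 ± 0.10 (edgeR adjusted p = 6.37e-07). Its 3 oligomycin samples, at 12.5, 10.5 and 11.4 CPM, lay around the DMSO level. Myh4 (1.15 ± 0.11), Acta2 (0.54 ± 0.03), Ldha (0.39 ± 0.04), Asb2, a muscle ubiquitin ligase subunit (2.62 ± 0.22), Gja5 (2.46 ± 0.31), Fbxl22, an F-box protein (1.67 ± 0.10), and Mss51 (1.46 ± 0.29) were also higher with piericidin. Hk2 was lower with piericidin by 1.04 ± 0.10, at 26.7 to 32.2 against 59.5 to 65.0.

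At 10090 of the 11827 genes the inhibitors were not called different. Of the genes described above, Egr1 differed by 0.07 ± 0.15 (edgeR adjusted p = 0.82), Txnip by -0.20 ± 0.19 (edgeR adjusted p = 0.565), Sema7a by -0.37 ± 0.12 (edgeR adjusted p = 0.0621) and Eif4b by -0.06 ± 0.03 (edgeR adjusted p = 0.275). Egr2 (-0.48 ± 0.13) and Angptl4 (-0.66 ± 0.08) were lower with piericidin. Each inhibitor was used at a single dose.

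The response of day 1 cells was then set against those of control myoblasts and day 4 myotubes in a fit of 27 samples and 12655 genes. Unless stated otherwise, the lists above were counted in the fit of the 9 day 1 samples. For day 1 cells the 27-sample fit also called 1 gene higher of 78 mitochondrial ribosomal proteins, 1 of 41 subunits of complexes II to V, 1 of 12 genes of fatty acid synthesis, 2 of 18 of purine and pyrimidine synthesis, 2 of 14 of NAD synthesis and use, Nmrk2 included, and 6 of 17 of the actin cytoskeleton. It called 2 higher and 6 lower of 42 sarcomere genes, and 1 higher and 3 lower of 17 myogenic genes. Fatty acid oxidation had 1 higher and 2 lower of 21, and 9 of 26 immediate early genes were lower. In this fit piericidin changed 415 genes in day 1 cells (3.28%), 7428 in myoblasts (58.7%) and 806 in myotubes (6.37%). The response differed between day 1 cells and myoblasts at 5921 genes (46.8%), and between day 1 cells and myotubes at 62 genes (0.49%), both by a test of the difference itself. State, serum, doxycycline and transgene all differ between the myoblasts and day 1 cells and cannot be told apart.

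All 12 stress response regulators had a lower response in day 1 cells than in myoblasts, as had 21.9% of all genes. The log2 response of Atf3 was -0.10 ± 0.12 in day 1 cells and 7.30 ± 0.13 in myoblasts, a difference of -7.40 ± 0.19 (edgeR adjusted p = 4.94e-20). Ddit3 (-4.66 ± 0.10), Ppp1r15a (-4.80 ± 0.12), Gdf15 (-4.08 ± 0.20), Fgf21 (-8.20 ± 0.28) and Atf4 (-2.59 ± 0.05) differed in the same direction. In DMSO, 1 of the 4 secreted proteins linked to mitochondrial stress stood 8.47 log2 units higher in day 1 cells than in myoblasts. Starting levels thus differed between the states. The cell cycle genes Ccne1 (-2.78) and Tk1 (-2.67) and the sterol gene Idi1 (-3.19) fell in myoblasts, and the day 1 response exceeded that by 2.56, 2.30 and 3.14. The log2 response of Egr1 was -3.03 in myoblasts and -0.98 in day 1 cells, a difference of 2.05 ± 0.21.

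Of the other genes with the largest differences from myoblasts, Extl1 (-7.24), Car6 (-6.35) and Prg4, a joint lubricant protein (-6.29), had the lower response in day 1 cells, and Camk1g (5.47), Galnt6 (5.25), Angpt1 (5.17), Rab7b (5.06) and Olfml2a (4.92) the higher. Nmrk2 was 6.23 log2 units lower in DMSO myoblasts than in DMSO day 1 cells, so its response there was poorly measured (-1.65 ± 1.21). Of the 415 genes changed in day 1 cells, 313 (75.4%) were also among the 7428 changed in myoblasts (4.21% of those), against 58.7% of all genes, 214 in the same direction and 99 in the opposite one.

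**Figure D5:**
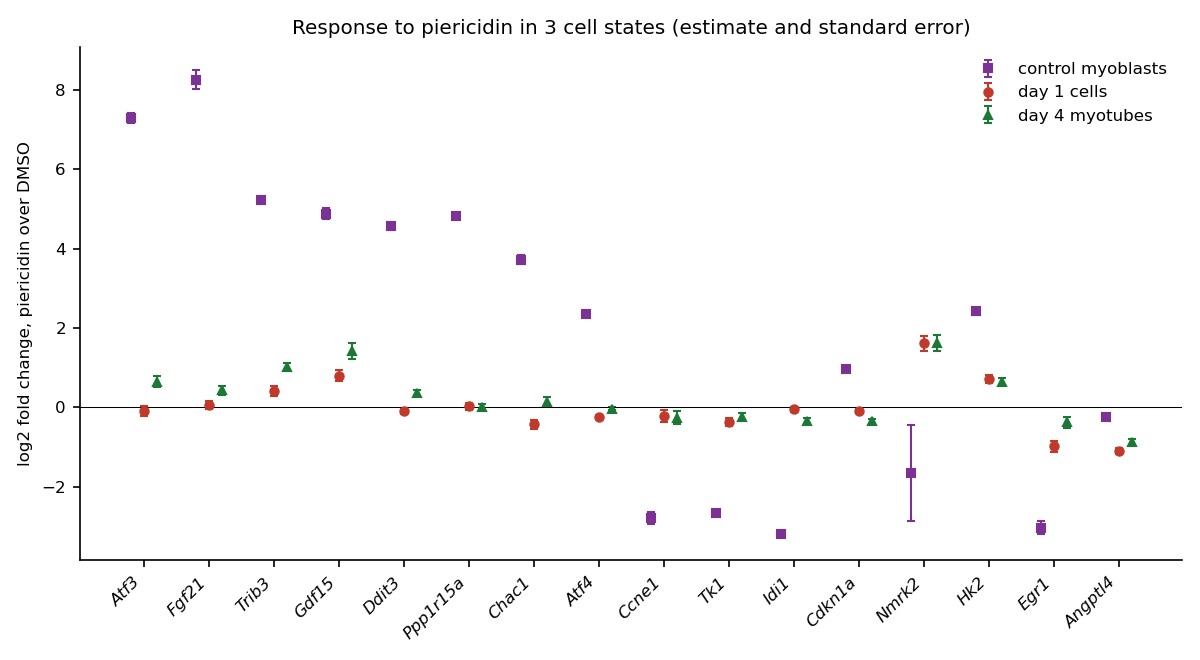
Log2 fold change of piericidin over DMSO, as estimate and standard error from the 27-sample fit, for 16 genes in control myoblasts (squares), day 1 cells (circles) and day 4 myotubes (triangles), 3 samples a group. For Atf3, Fgf21, Trib3, Gdf15, Ddit3, Ppp1r15a, Chac1 and Atf4 the myoblast points lie far above the others, and for Nmrk2 the day 1 and myotube points are level at 1.62.

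Day 1 cells and myotubes were closer by the number of genes that differed, but some lists parted. HIF targets fell at 3 of 20 in day 1 cells and 12 of 20 in myotubes, with medians of -0.15 and -0.64. Glycolysis genes fell at 5 and 14 of 26 and sterol genes at 0 and 10 of 24, against 208 and 463 of all 12655. The difference itself was called at 4, 5 and 3 of these, all with the higher response in day 1 cells. No stress response regulator of 12 rose in day 1 cells and 4 rose in myotubes. Of the 415 genes called in day 1 cells, 186 (44.8%) were among the 806 called in myotubes (23.1% of those), against 6.37% of all genes, and 184 of the 186 moved in the same direction (91 higher, 93 lower). The log2 response of Nmrk2 was 1.62 ± 0.19 in each state, a difference of 0.00 ± 0.25 (edgeR adjusted p = 1). Hk2 (0.71 ± 0.10 and 0.65 ± 0.09) and Angptl4 (-1.10 ± 0.07 and -0.87 ± 0.08) were not called different. Cytosolic ribosomal protein genes had a median response of 0.17 in both states.

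The genes with a different response in myotubes included Pfkl, whose log2 response was -0.43 ± 0.10 in day 1 cells and -1.75 ± 0.10 in myotubes, a difference of 1.32 ± 0.14 (edgeR adjusted p = 1.3e-05). E2f2 (1.45 ± 0.17), a driver of S phase genes, and Slc16a3, a lactate exporter (1.15 ± 0.25), likewise had a lower response in myotubes, at -1.77 and -1.63. Clic3 (0.89 ± 0.18) and Fam167a (0.81 ± 0.19) also had the higher or less negative response in day 1 cells, as had C2cd3 (1.02) and the pseudogene Rps6-ps4 (0.93). Sema7a responded by -1.61 ± 0.12 in day 1 cells and -0.56 ± 0.13 in myotubes, a difference of -1.05 ± 0.18 (edgeR adjusted p = 0.00407). Fst (-0.83 ± 0.17) and Tcap (-1.16 ± 0.26) fell in day 1 cells and were not called in myotubes.

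Asb2, which was not called in day 1 cells (-0.04 ± 0.18), rose by 1.61 ± 0.18 in myotubes, and Nr4a1, an immediate early nuclear receptor, by 1.01 ± 0.15 against -0.08 ± 0.16. Atcayos, the antisense gene at Nmrk2, differed by -1.65. Atf3 rose in myotubes by 0.65 ± 0.14 and Trib3 by 1.01 ± 0.10, and neither differed from its day 1 response at the adjusted threshold (-0.75 ± 0.18 and -0.59 ± 0.16, edgeR adjusted p = 0.123 for each). Of the 12 stress response regulators, 2 had a lower response in day 1 cells than in myotubes, as had 0.174% of all genes. The difference was below 0 for 11 of the 12, with a median of -0.41. At an unadjusted p under 0.05, 7 of the 12 were lower, against 493 of all 12655 genes. Without any 1 of the 12 samples behind this comparison the count of 62 genes was 24 to 53.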

How the data were processed

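RNA was selected for poly(A), made into unstranded Smart-seq2 libraries and sequenced on 2 flow cells. The authors demultiplexed reads with bcl2fastq 2.20.0.422 and quantified them with kallisto 0.44 on the Ensembl mouse transcriptome (GRCm38.p6) plus the transgenes. They deposited estimated counts per gene, merged over flow cells with tximport, as whole numbers for 54146 genes and 4 transgenes. Transcript-level assignment can split reads between near-identical genes. Groups came from the sample titles. Here edgeR 4.0.16 (R 4.3.3) was run on those deposited estimated counts, with TMM scaling, the quasi-likelihood test and a threshold of 0.05 on p-values adjusted by Benjamini-Hochberg across the whole table. Genes needed 16 counts in every replicate of at least 1 group. The 3 day 1 treatments were fitted together, and 27 samples of 3 states for the differences between states. CPM values are counts scaled to 1000000 per TMM-adjusted library. SE is the absolute log2 fold change over the square root of F. The scripts were tested on simulated data. Alternatives were DESeq2 1.42.0 (its size factors and Wald test), no filter, the compared groups alone, a replicate block, library totals, and leaving out each replicate. Named genes were up to 15 per direction with the largest called change, at least 50 counts on average, no overlap between groups and no predicted gene, 10 genes the study names, and up to 3 per direction in each of 40 gene lists (or the 2 smallest p where fewer than 2 were called). For the other comparisons up to 5 per direction were added. Members and lists were chosen with earlier results of these data known, and 3 lists after the values were seen. GENCODE M21 gave gene positions. The 6 libraries held 9199944 to 12067492 counts.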

Additional observations from a re-analysis of the deposited data

Results flagged for a closer look

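The values here were singled out because a test of the difference itself, an interaction contrast in the 27-sample edgeR fit, found that the response to piericidin differed between cell states at an adjusted p under 0.05. Against control myoblasts the response of day 1 cells differed at 5921 genes. The log2 response in day 1 cells minus that in myoblasts was -8.20 for Fgf21, -7.40 for Atf3, -7.24 for Extl1, -6.35 for Car6, -6.29 for Prg4, -4.80 for Ppp1r15a, -4.66 for Ddit3, -4.08 for Gdf15, -2.59 for Atf4 and -1.05 for Cdkn1a. It was 5.47 for Camk1g, 5.25 for Galnt6, 5.17 for Angpt1, 5.06 for Rab7b, 4.92 for Olfml2a, 3.14 for Idi1, 2.56 for Ccne1 and 2.30 for Tk1.

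Against day 4 myotubes the response differed at 62 genes. The log2 response in day 1 cells minus that in myotubes was -1.65 for Asb2, -1.65 for Atcayos, -1.16 for Tcap, -1.09 for Nr4a1, -1.05 for Sema7a and -0.83 for Fst. It was 1.45 for E2f2, 1.32 for Pfkl, 1.15 for Slc16a3, 1.02 for C2cd3, 0.93 for Rps6-ps4, 0.89 for Clic3 and 0.81 for Fam167a. No outlying sample was looked for, since each group held 3.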

How the results depend on the processing

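The 325 genes changed by piericidin were 317 with the size factors of DESeq2, 376 with its Wald test, 306 with the compared groups alone, 342 with library totals (chosen after seeing the data; 265 shared) and 613 with no filter on low counts (282 shared). Leaving out 1 sample gave 122 to 176, and every such removal moved the count by over 1.5 times: without DMSO replicates 1, 2 and 3 it was 158, 122 and 132, and without piericidin replicates 1, 2 and 3 it was 143, 176 and 124. These fits have fewer samples. The 22 genes changed at least 2-fold were 92 with no filter and 8 with DESeq2, where 14 of the 22 had no adjusted p, and 11 to 19 with 1 sample left out (14 without DMSO replicate 1, 11 without DMSO replicate 3, 13 without piericidin replicate 1). The cause of the changes with no filter was not tested.

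The 1737 genes between piericidin and oligomycin and the 5921 between day 1 cells and myoblasts stayed within 1.5 times under each setting run, at 1294 to 1588 and 5501 to 5761 with 1 sample left out. The 62 genes between day 1 cells and myotubes were 209 with no filter, 133 with DESeq2 and 24 to 53 with 1 sample left out. That count was 37, 36 and 40 without day 1 DMSO replicates 1, 2 and 3, 37 and 39 without day 1 piericidin replicates 1 and 3, 40 and 36 without myotube DMSO replicates 2 and 3, and 41, 24 and 40 without myotube piericidin replicates 1, 2 and 3.

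With a replicate block, 267 genes were called between piericidin and DMSO (250 shared), 22 at least 2-fold, 1681 against oligomycin, 5942 for the difference from myoblasts and 55 for that from myotubes. Same-numbered DMSO and piericidin samples had deviations that correlated at 0.077, 0.137 and -0.079. Same-numbered oligomycin and piericidin samples correlated at -0.114, 0.307 and 0.002, and differently numbered ones of these 2 groups at -0.33 to 0.329. With 3 samples a group, these values cannot show whether the numbers pair the samples. No named gene that was called changed sign, whereas some that were not called and lay near 0 did, such as Ppp1r15a (-0.06 to 0.10) and Nr4a1 (-0.24 to 0.06). Of the values of named genes under other settings, 2761 stayed on their side of the threshold, 314 lost it and 40 gained it. In simulated counts on 11599 genes, 13, 32, 45 and 49 of 50 genes changed 1.3, 1.5, 2 and 3-fold were recovered for piericidin against DMSO, and 10 unchanged genes were called. For the difference between day 1 cells and myotubes, on 12344 genes, 2, 15, 40 and 46 of 50 were recovered, with 5 unchanged genes called.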
